A study of Mus musculus with 10 samples.

Results

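miR-126a is the microRNA hairpin carried in an intron of Egfl7, and it gives rise to a pair of mature arms, mmu-miR-126a-3p and mmu-miR-126a-5p, where mmu stands for mouse. The members were chosen by name: these 2 of the 1139 mature mouse miRNAs in the deposited tables, both found and both tested. Small RNA was sequenced from hearts of male C57Bl6N mice, all collected 1 week after TAC (transverse aortic constriction), an operation that narrows the aortic arch and puts the left ventricle under pressure overload. There were 5 libraries labelled CITED4 knockout and 5 labelled floxed control, in which the gene carries recombination sites; no unoperated heart was analysed here. CITED4 is a nuclear protein that acts on transcription through the coactivator CBP. The sources used here give neither the age of the mice nor what drove recombination and in which cells. They do not state whether each library came from a separate mouse, so p-values measure the spread between libraries, which may be technical. The tables hold no messenger RNA, so neither Cited4 nor Egfl7 transcript could be read from them.

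Egfl7 encodes a secreted factor of blood vessels, and the miRNA in its intron is known as the most characteristic miRNA of endothelial cells. The 3p arm is known to repress Spred1 and Pik3r2, which dampen signalling downstream of vascular growth factors, and the adhesion molecule Vcam1; mice without the miRNA develop leaky vessels. The 5p arm is known to act in endothelial cells too, where Dlk1 is a described mouse target. In RNA of whole heart, fewer endothelial cells and less of the miRNA per cell cannot be told apart.

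The hairpin and the 3p arm are shown because the 2 rows count reads from the opposite sides of this stem. In RefSeq (GRCm38.p6) the hairpin lies at chr2:26591357-26591429 on the plus strand and the 3p arm at chr2:26591402-26591423. Capitals mark the 3p arm in the hairpin, and bases 2 to 8, the seed that pairs with targets, in the mature sequences. A second annotated hairpin, miR-126b, lies on the minus strand at chr2:26591363-26591420, inside the miR-126a locus, and its arms are shown because they are antisense to miR-126a.
miR-126a hairpin: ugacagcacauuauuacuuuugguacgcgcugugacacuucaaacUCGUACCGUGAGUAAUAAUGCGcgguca
miR-126a-3p: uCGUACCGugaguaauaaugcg
miR-126b-5p: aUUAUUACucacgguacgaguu
miR-126b-3p: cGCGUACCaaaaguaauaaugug
Of the 2 members, 1 (miR-126a-3p) had a mature entry in the RefSeq table. The 3p arm covers bases 46 to 67 of the 73-base hairpin, and miR-126b-5p overlaps it on the opposite strand over 19 bases. Among the 951 of 1139 rows with a RefSeq sequence, 0 shared the seed CGUACCG with miR-126a-3p. In GENCODE release M21 on the same build, the hairpin fell in an intron of 8 of the 19 annotated Egfl7 transcripts, in an exon of 1 and outside the other 10. In transcript Egfl7-201 it lies between exons 7 and 8. Gm20532, annotated as protein-coding on the same strand, also spans the locus.

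Library totals ran from 8909932 to 18369483 counts in knockout and from 7526091 to 11608900 in control. The heart muscle miRNA miR-1a-3p took between 24.8% and 35.5% of counts in knockout libraries and between 27.0% and 39.3% in control libraries. Of 457 miRNAs tested with edgeR's quasi-likelihood test, 0 (0%) passed an adjusted p of 0.05, and 29 (6.35%) had an unadjusted p under 0.05. DESeq2 and limma-voom also called 0, with 45 and 23 at an unadjusted p under 0.05.

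Both arms were abundant in every library. mmu-miR-126a-3p was counted 233476, 215474, 296468, 264074 and 352040 times in knockout replicates 1 to 5, against 250146, 262151, 164868, 202192 and 209451 times in control replicates 1 to 5. It took 2.17% ± 0.343 of all miRNA counts in knockout hearts and 2.19% ± 0.181 in control hearts (SD, n = 5 each). It ranked between 8th and 14th of all rows in knockout libraries and between 10th and 13th in control libraries. mmu-miR-126a-5p was counted 72312, 75994, 120340, 98779 and 129215 times in knockout replicates 1 to 5, against 77135, 90673, 59199, 81005 and 81925 times in control replicates 1 to 5. Its share was 0.778% ± 0.103 of counts in knockout hearts and 0.785% ± 0.0213 in control hearts (SD, n = 5 each), and its rank lay between 20th and 26th in all 10 libraries. With at least 59199 reads of an arm in a library, counting error was at most 0.411% of the 5p count and 0.246% of the 3p count.

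The antisense miR-126b rows were near 0. miR-126b-3p had 10 counts over all knockout libraries and 14 over all control libraries, and miR-126b-5p had 11 over knockout and 5 over control libraries. The largest count in a library was 6, and neither row passed the filter on low counts. miR-126b-5p amounted to 0.000653% of the miR-126a-3p reads that lie opposite to it.

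Neither arm passed the test between knockout and control. On the CPM scale, which sets counts against library totals scaled by TMM factors, miR-126a-3p was at 19258, 21170, 18719, 25066 and 19299 CPM in knockout replicates 1 to 5, and at 21682, 23046, 19292, 24960 and 25388 CPM in control replicates 1 to 5. Knockout replicate 4 stood with the upper controls and control replicate 3 with the lower knockouts, so the groups overlapped. The means were 20703 ± 2610 CPM in knockout and 22874 ± 2497 CPM in control (SD, n = 5 each), and the log2 fold change was -0.14 ± 0.14 (SE; 95% interval -0.45 to 0.16). The adjusted p in edgeR's quasi-likelihood test over 457 miRNAs was 0.678 (unadjusted 0.328). On the linear scale the interval runs from 0.732 to 1.12 of the control level, and with this spread the data do not tell apart the values inside it.

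miR-126a-5p had a log2 fold change close to that of the 3p arm. It was at 5965, 7466, 7598, 9376 and 7084 CPM in knockout replicates 1 to 5, and at 6686, 7971, 6927, 9999.8 and 9930 CPM in control replicates 1 to 5. Control replicates 4 and 5 were the highest and knockout replicate 1 the lowest, with the other libraries of both groups interleaved. The means were 7498 ± 1231 CPM in knockout and 8303 ± 1593 CPM in control (SD, n = 5 each). Its log2 fold change was -0.15 ± 0.17 (SE), a 95% interval of -0.51 to 0.21, and edgeR's adjusted p was 0.691. Scaling by library totals only brought the log2 fold changes to -0.01 for both arms, and moved the median over all 457 miRNAs to 0.14, against 0.03 with TMM factors.

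**Figure D1:**
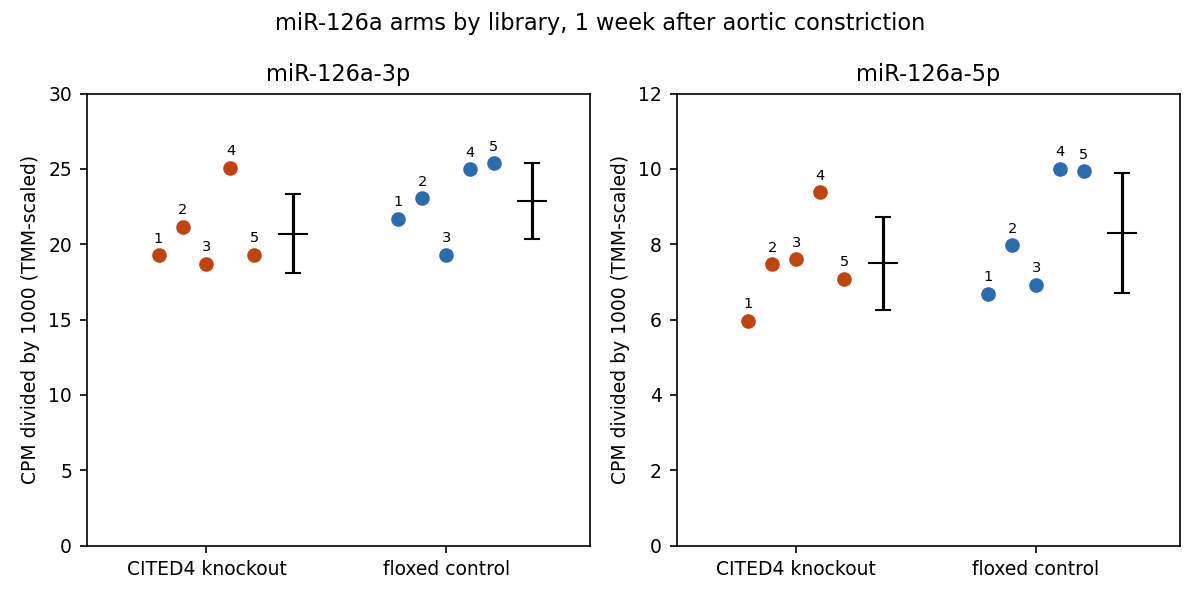
CPM divided by 1000 (TMM-scaled) of miR-126a-3p and miR-126a-5p in each library, with knockout left of control and points numbered by replicate. Black bars give the mean ± SD of 5 libraries; the groups overlap in both panels, with means of 20703 and 22874 CPM for the 3p arm and 7498 and 8303 CPM for the 5p arm.

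miR-1a-3p is a large part of each library total. The combined share of both arms needs no TMM factor, but it depends on that total. It was 3.08%, 3.27%, 2.38%, 3.38% and 2.62% of counts in knockout replicates 1 to 5, and 3.20%, 3.04%, 2.98%, 2.76% and 2.90% in control replicates 1 to 5. Knockout libraries included both the highest and the lowest share. The knockout mean was 0.029 percentage points lower (95% interval -0.503 to 0.446; exact two-sided permutation test, p = 0.90, adjusted p = 0.98 over 3 such tests). With miR-1a-3p left out of the total, the difference, knockout minus control, was -0.165 percentage points (adjusted p = 0.98 in the same permutation test). With 5 libraries against 5 the smallest p this test can give is 0.0079.

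Set against the heart muscle miRNA, miR-126a-3p did not pass a test between genotypes either. For each read of miR-126a-3p there were 11.5, 10.3, 20.4, 14.4 and 16.4 reads of miR-1a-3p in knockout replicates 1 to 5, and 11.02, 13.6, 12.6, 19.9 and 18.3 in control replicates 1 to 5. Both groups spanned nearly the same range. The log2 ratio of miR-126a-3p to miR-1a-3p was -3.82 ± 0.40 in knockout and -3.88 ± 0.36 in control (SD, n = 5 each), a difference of 0.05 with a 95% interval from -0.50 to 0.61 (exact two-sided permutation test, p = 0.82, adjusted p = 0.98). With this spread the data do not tell apart the shifts inside that interval.

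Both arms of miR-126a left many reads, which placed it 2nd in minor-arm share among the abundant hairpins whose arms were paired by name. Usually 1 arm of a hairpin is loaded onto Argonaute and the other is degraded. The 5p arm made up 23.6%, 26.1%, 28.9%, 27.2% and 26.8% of the arm reads in knockout replicates 1 to 5, and 23.6%, 25.7%, 26.4%, 28.6% and 28.1% in control replicates 1 to 5. The average was 26.5% ± 1.91 in knockout and 26.5% ± 2.02 in control (SD, n = 5 each). Pairing the arms by name gave 136 hairpins with both arms tested. It left out hairpins with a copy number in the name of only 1 arm, such as miR-1a, let-7a, let-7c, let-7f and miR-24. Among the 136, a subset of 37 had at least 1000 CPM in both arms together, and their minor arms had a median share of 0.645%. Of the 37, miR-126a stood after miR-151 at 43.1% and before miR-30e at 25.5% and let-7d at 12.6%. Below 1000 CPM other hairpins had larger minor-arm shares than miR-126a. Among them were miR-145a at 34.0% and 747 CPM, miR-144 at 38.5% and 609 CPM, and miR-140 at 44.4% and 537 CPM. By the sum of its arms, 29689 CPM, miR-126a was the 4th most abundant of the 136, a rank that lacks the hairpins left out. Of those, miR-1a-3p, let-7f-5p, let-7a-5p and let-7c-5p had higher means alone, at 325580, 56694, 44078 and 42973 CPM. The 3 above miR-126a within the 136, miR-21a, miR-378a and miR-143, had minor-arm shares of 0.0348%, 0.848% and 0.0403%. These are shares of reads, and adapters may ligate unequally to the 2 sequences, so they need not be shares of molecules. No test was made of the rank.

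**Figure D2:**
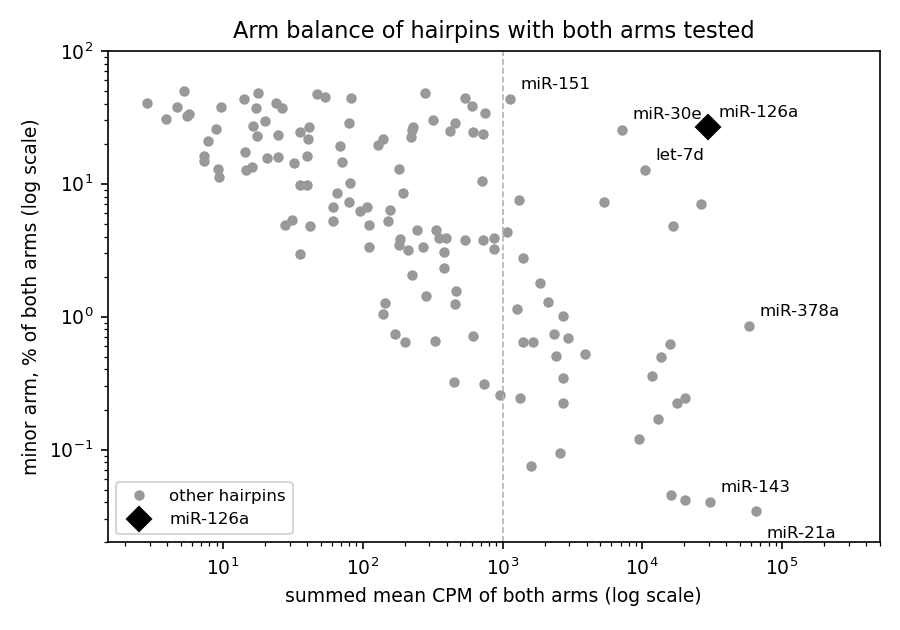
Minor arm as a percentage of both arms against the summed mean CPM of both arms, on log scales. The points are the 136 hairpins with both arms tested and paired by name. The dashed line marks 1000 CPM, and miR-126a (black diamond) lies at 26.5% and 29689 CPM, above all other hairpins to the right of the line except miR-151 at 43.1%.

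The ratio of the arms did not pass a test between genotypes. There were 3.23, 2.84, 2.46, 2.67 and 2.72 reads of the 3p arm per read of the 5p arm in knockout replicates 1 to 5, and 3.24, 2.89, 2.78, 2.50 and 2.56 in control replicates 1 to 5. Replicate 1 was highest and replicate 2 second in both groups. The log2 ratio was 1.47 ± 0.14 in knockout and 1.48 ± 0.15 in control (SD, n = 5 each), a difference of -0.0041 with a 95% interval from -0.22 to 0.21 (exact two-sided permutation test, p = 0.98, adjusted p = 0.98). In limma across the arm ratios of all 136 hairpins the interval of this difference ran from -0.29 to 0.28, with an adjusted p of 0.997. The absolute difference was the 3rd smallest of the 136 hairpins, whose median was 0.18 on the log2 scale. In that fit 0 hairpins (0%) passed an adjusted p of 0.05 and 4 (2.94%) had an unadjusted p under 0.05.

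**Figure D3:**
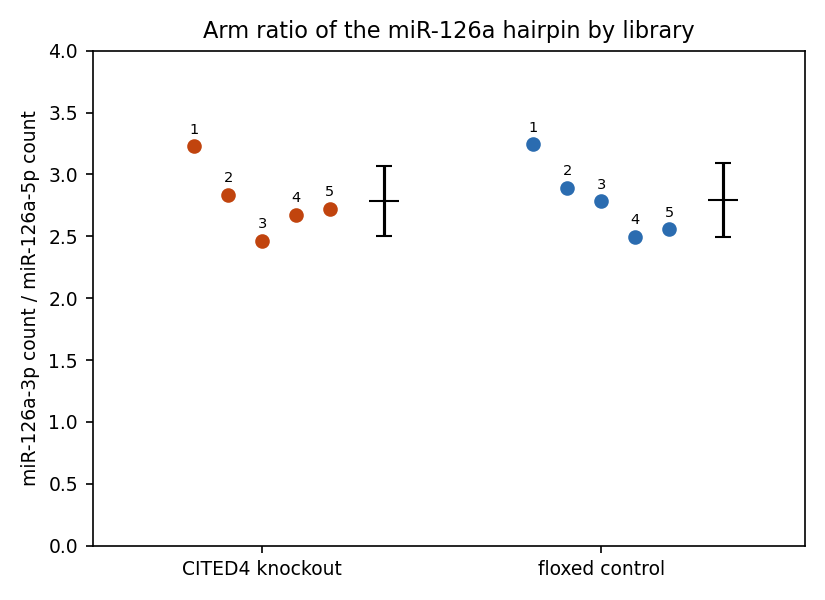
Reads of miR-126a-3p per read of miR-126a-5p in each library, with knockout left of control, points numbered by replicate, and black bars for the mean ± SD of 5 libraries. The 10 ratios lie between 2.46 and 3.24, and replicate 1 is the highest of each group.

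The arm ratio ranked low in spread among hairpins, and its spread was larger than counting error. Its SD within groups was 0.147 on the log2 scale, the 6th lowest of 136 hairpins and the 5th lowest of the 37 with at least 1000 CPM, whose medians were 0.413 and 0.367. The counting error of the miR-126a log2 ratio was at most 0.0069 in any library. Counting error grows where the minor arm has fewer reads, and the minor arms of the 37 had a median share of 0.645%. For the other hairpins it was not computed, so the rank in spread was not corrected for it. Over the 10 libraries the levels of the arms were correlated (log2 CPM, Pearson r = 0.85, permutation p = 0.0027, adjusted p = 0.0054 over 4 relations). Spearman's rho was 0.71 (permutation p = 0.027, adjusted p = 0.054), and r was 0.74 without control replicate 5 and knockout replicate 4, the libraries farthest from the median of the 3p arm. On deviations from the group means r was 0.84 (permutation p = 0.0026, adjusted p = 0.0054) and rho 0.72 (adjusted p = 0.054). Both arms of a library are divided by the same scaling factor, and with library totals only r was 0.63 and no longer passed (adjusted p = 0.10). Without knockout replicate 4 it was 0.79 (adjusted p = 0.055). A relation of the arm ratio to depth did not pass (r = -0.33 with the log10 library total, permutation p = 0.36; rho = -0.37, p = 0.30; r = 0.02 without knockout replicates 3 and 5).

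The 3p arm ranked low in spread among abundant miRNAs, and the standing of the 5p arm depended on the scaling. From its lowest to its highest library, the 3p arm varied 1.36-fold in CPM and the 5p arm 1.68-fold. The SD of log2 CPM within groups was 0.17 for the 3p arm, the 13th lowest of 52 miRNAs with at least 1000 CPM (median 0.29), and 0.26 for the 5p arm, the 24th lowest. miR-103-3p had the lowest SD of these, 0.095, followed by miR-24-3p at 0.12, miR-143-3p at 0.12, miR-125a-5p at 0.12 and miR-27b-3p at 0.13. Scaled by library totals only, the 5p arm had an SD of 0.13 and was the 5th lowest of the 52, and the 3p arm had an SD of 0.19 and was the 11th. In control libraries the 5p share of counts lay between 0.755% and 0.814%, a coefficient of variation of 2.71%, against 19.2% for its CPM in the same libraries. In knockout libraries the share lay between 0.688% and 0.921%, with a coefficient of variation of 13.2%, against 16.4% for its CPM. The TMM factors ran from 0.905 to 1.22 in knockout and from 0.790 to 1.14 in control libraries. Their part in the spread of the arms was not tested further than by this pair of scalings.

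**Figure D4:**
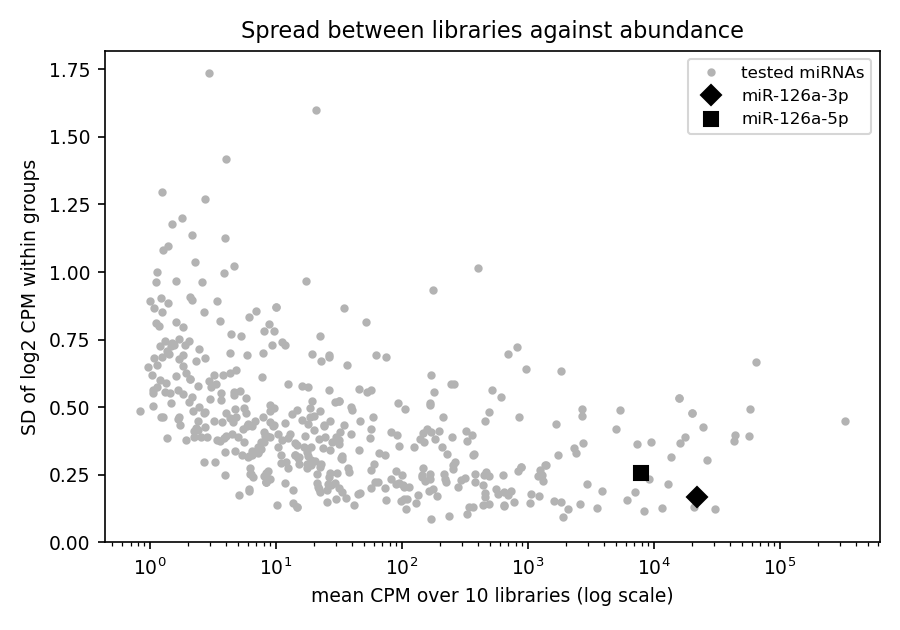
SD of log2 CPM within groups against mean CPM over 10 libraries (log scale) for the 457 tested miRNAs, with miR-126a-3p as a diamond and miR-126a-5p as a square. The arms lie at 0.17 and 0.26 among the abundant miRNAs.

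In mean CPM the 3p arm was 10th and the 5p arm 22nd when rows with identical counts were taken once. Next above the 3p arm were miR-26a-5p and miR-30a-5p at 26200 and 24412 CPM, and next below it were miR-16-5p and miR-486a-5p at 20823 and 20129 CPM. The order of these neighbours was not fixed: miR-126a-3p was above miR-30a-5p in 4 of 10 libraries and above miR-16-5p in 8 of 10. The SD of log2 CPM within groups was 0.17 for miR-126a-3p, 0.13 for miR-16-5p, 0.31 for miR-26a-5p, 0.43 for miR-30a-5p and 0.48 for miR-486a-5p. Around the 5p arm at 7900 CPM stood let-7d-5p at 9124, miR-24-3p at 8351, miR-30c-5p at 7330 and miR-181a-5p at 7026 CPM. miR-126a-5p was above miR-24-3p in 4 of 10 libraries.

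The miRNAs whose log2 CPM was most like that of each arm over the 10 libraries were found among 269 candidates with at least 10 CPM. For miR-126a-3p these were miR-322-3p (r = 0.82), miR-22-5p (0.82), miR-26b-3p (0.81), miR-27a-3p (0.79) and miR-499-5p (0.78). For miR-126a-5p they were miR-32-5p (r = 0.94), miR-23a-3p (0.91), miR-499-5p (0.91), miR-27a-3p (0.87) and miR-30c-1-3p (0.86). The medians over all candidates were 0.08 and 0.06. Strongly negative correlations also occurred among the candidates, more of them with the 5p arm than with the 3p arm. miR-27a-3p and miR-499-5p stood in both lists. They are shown with the seed in capitals, which differs from that of miR-126a-3p.
miR-27a-3p: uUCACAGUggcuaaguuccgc
miR-499-5p: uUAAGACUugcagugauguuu
RefSeq places miR-27a-3p at chr8:84208727-84208747 and miR-499-5p at chr2:155622893-155622913, both on the plus strand of GRCm38.p6. miR-499-5p, known as a heart muscle miRNA, was at 2376 ± 837 CPM in knockout and 3003 ± 1141 CPM in control (SD, n = 5 each). These correlations are over 10 libraries that share their scaling factor across miRNAs, and they are given as a description.

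No miRNA of a list linked to vessels but not specific to endothelium passed the test either. Of 21 listed, all were tested, 11 had higher and 10 lower means in knockout, and 0 passed an adjusted or unadjusted p of 0.05 in edgeR's test, beside 0% and 6.35% of all miRNAs. Their median log2 fold change was 0.01, against 0.03 over all miRNAs. The most abundant were miR-27b-3p, at 11485 ± 1085 CPM in knockout and 11864 ± 852 CPM in control, and miR-24-3p, at 8220 ± 576 CPM in knockout and 8481 ± 771 CPM in control (SD, n = 5 each). They belong to the miR-23, miR-27 and miR-24 clusters, which are known in mice to act on vessel sprouting. miR-27a-3p was at 1722 ± 177 CPM in knockout and 1910 ± 200.3 CPM in control. miR-221-3p, which in human endothelial cells is known to limit migration through the receptor KIT, was at 1404 ± 185 CPM in knockout and 1251 ± 231 CPM in control.

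**Figure D5:**
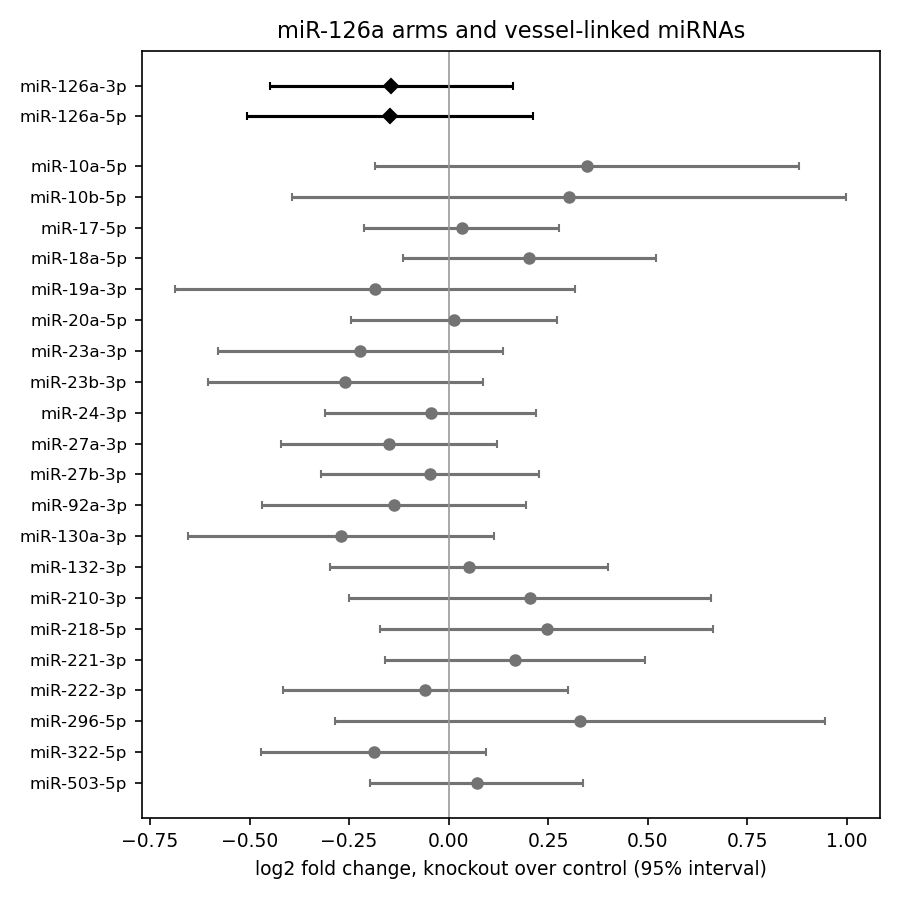
Log2 fold change of knockout over control with its 95% interval for the miR-126a arms (black diamonds) and 21 vessel-linked miRNAs (grey circles), from edgeR's quasi-likelihood fit with 5 libraries a group. All 23 intervals include 0, and the arms lie at -0.14 and -0.15.

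Marker miRNAs of the other cells of a heart were measured beside the endothelial arms. The summed level of miR-126a-3p and -5p ranged from 25223 to 34443 CPM in knockout and from 26220 to 35318 CPM in control. The 6 cardiomyocyte miRNAs summed to between 220847 and 387114 CPM in knockout and between 242925 and 504570 CPM in control; 5 of the 6 had lower means, with a median log2 fold change of -0.40, and 2 (miR-133b-3p and miR-133a-3p) had p under 0.05 before adjustment, beside 6.35% of all miRNAs. No tested member of the other lists in this paragraph did. The 4 smooth muscle and pericyte miRNAs, of cells that wrap vessels, summed to between 26431 and 33161 CPM in knockout and between 28045 and 33846 CPM in control, with a median log2 fold change of 0.04. The 4 fibroblast miRNAs had higher means and summed to between 52492 and 132710 CPM in knockout and between 38600 and 108890 CPM in control, with a median of 0.39. The 5 leukocyte miRNAs summed to between 1386 and 1762 CPM in knockout and between 1562 and 1593 CPM in control, with a median of -0.07. Of 4 erythroid miRNAs listed, miR-451a was not analysed here, and the other 3 had lower means, with a median of -0.49. They summed to between 11532 and 25240 CPM in knockout and between 13759 and 33016 CPM in control. That sum was mostly miR-486a-5p, at 20129 CPM on average, against 398 for miR-144-3p and 211 for miR-144-5p. miR-486a-5p also set the median, and it is known in muscle as well as blood, so the list is not specific to erythroid cells. The cardiomyocyte, fibroblast and smooth muscle sums were likewise mostly miR-1a-3p, miR-21a-5p and miR-143-3p, at 325580, 64929 and 30582 CPM. In none of these lists did a member pass the adjusted p in edgeR's test, each tested marker had reads in all 10 libraries, and their part in the level of miR-126a was not tested.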

How the data were processed

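Mature miRNA reads of 10 heart libraries were compared, 5 CITED4 knockout and 5 floxed control. The authors deposited raw read counts per mature miRNA and a normalized signal table. Each normalized value equals the deposited count divided by the DESeq2 size factor of its library: 100% of values came out as whole reads within 0.01, these equalled the deposited counts, and the test on them called 0 miRNAs. GRCm38, STAR, Bowtie, DESeq2 and cutadapt 1.10 are listed, per the submitters' processing notes, with no role stated. The sources used here do not give the miRNA release or how reads matching several miRNAs were counted. Per the labels' protocols, the kit was NEXTflex Small RNA. Each read covers a mature miRNA, so levels were not divided by length, and intervals cover counting error and spread between libraries, not amplification or ligation bias.

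Columns were matched to libraries by genotype and replicate number in the titles. No pair of libraries of a group agreed within sampling noise (smallest chi-square per degree of freedom 210 in knockout and 108 in control pairs), so none was merged as a repeat deposit; this does not tell separate mice from repeat preparations. edgeR 4.0.16 in R 4.3.3 (filterByExpr, TMM, quasi-likelihood test, genotype only, Benjamini-Hochberg adjustment, threshold 0.05) tested 457 miRNAs holding 99.99% of counts; 8 further copies of rows with identical counts were among them. Standard errors are the log2 fold change divided by the square root of F. log2 CPM used a prior count of 2. Arm ratios used a prior count of 0.5 and, across hairpins, limma 3.58.1. Arms were paired by name, so copies of a hairpin that share reads are not independent. Hairpins with a copy number in the name of only 1 arm were left out, among them abundant ones. Single values used exact permutation tests, with t-distribution 95% intervals for differences, and correlations used 100000 permutations. Both fits were tested on simulated data and missed part of the changed miRNAs and hairpins there, so a count of 0 does not show that nothing changed. DESeq2 1.42.0 and limma-voom were alternatives.

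The members and lists were chosen with earlier results of these data known. Named miRNAs are the members, the miR-126b rows, the 5 most correlated with each arm at 10 CPM or more, the 5 steadiest at 1000 CPM or more, the 2 on either side of each arm in abundance, any sharing a seed, the lists, and the 4 most abundant vessel-linked ones. Hairpins and markers named beyond this rule were chosen after their values were seen.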

Additional observations from a re-analysis of the deposited data

Results flagged for a closer look

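The measures, the arms' CPM, arm ratio, share and ratio to miR-1a-3p, the library total and the summed marker lists, were examined for a single outlying library per group. Of 24 sets of 5 libraries, 1 met the criterion, where chance gives about 1 in 20. In knockout replicate 3 the smooth muscle and pericyte miRNAs summed to 26431 CPM, against 31547 to 33161 CPM in the other knockout libraries, a gap of 0.760 of the group's range where 0.71 is the 95% critical value for 5 samples. The same library had the lowest miR-126a-3p level, at 18719 CPM, and the lowest arm ratio of all 10, at 2.46. No measure of miR-126a itself met it in either group.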

How the results depend on the processing

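In 21 alternative fits (other scaling, filters, tools, left-out libraries, and reads recovered from the normalized table, the last chosen after seeing the data) both arms kept a lower mean in knockout and 0 miRNAs were called, with adjusted p for the arms between 0.444 and 0.994. The recovered reads equal the deposited counts, so that fit repeats the main one and adds no support. The 29 of 457 miRNAs at an unadjusted p under 0.05 became 102 with no low-count filter, where every row with a count was tested, more than 457. They became 72 with the replicate block, 45 with DESeq2 and 14 with library totals only. They became 84 or 65 when control replicate 1 or knockout replicate 4 was left out, and between 6 and 18 when control replicate 3, 4 or 5 or knockout replicate 1, 2 or 5 was. With 1 library left out, the log2 fold change ranged from -0.21 to -0.09 for miR-126a-3p and from -0.23 to -0.05 for miR-126a-5p. The genotype difference of the log2 arm ratio then ranged from -0.059 to 0.051, that of the combined share from -0.138 to 0.112 percentage points, and that of the log2 ratio to miR-1a-3p from -0.064 to 0.185. These 3 differences near 0 turned in sign in 5, 3 and 4 of 10 such fits, and none passed. The correlation of the arms ranged from 0.781 to 0.918 with 1 library left out and was 0.634 with library totals only, where it no longer passed. The SD of the 3p arm within groups, 0.167 with TMM, ranged from 0.124, without knockout replicate 4, to 0.176 with 1 library left out and was 0.189 with library totals only. That of the 5p arm was 0.135 with library totals only, against 0.256 with TMM. The causes were not tested. The replicate block changed no call: with it the log2 fold changes were -0.15 for miR-126a-3p and -0.14 for miR-126a-5p, with an adjusted p of 0.643 for each in edgeR's test. Deviations from group means had correlations from -0.12 to 0.45 within same-number pairs, and the best match of 4 of 10 libraries bore the same number. These values do not settle whether the numbers pair libraries, and the main fits did not use the numbers. Depth did not limit either arm; the spread between libraries did.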

Other observations

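The arm ratio was lower in libraries with a larger share of miR-1a-3p. This relation was chosen after the values were seen, and its p-values, adjusted or not, do not account for that choice. Over 10 libraries Pearson's r was -0.79 (permutation p = 0.0066, adjusted p = 0.011 over 5 relations) and Spearman's rho was -0.83 (permutation p = 0.0043, adjusted p = 0.021). Without control replicates 4 and 5, which had the largest shares, r was -0.70. The level of miR-126a-3p had r = 0.61 with the same share (permutation p = 0.068, adjusted p = 0.090), rho = 0.49 (p = 0.15), and r = 0.25 without those libraries, and a miRNA's CPM and the share of the most abundant one are linked by construction.

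The replicate 1 libraries of both groups had the highest miR-126a arm ratios of all 10, at 3.23 in knockout and 3.24 in control. In 14 of the 136 hairpins, miR-126a among them, these libraries had either the 2 highest or the 2 lowest arm ratios. How many hairpins would do so by chance was not computed. The labels do not say what a replicate number marks.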
